A study of Homo sapiens with 9 samples.

Results

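The genes examined here carry proteins into the endoplasmic reticulum (ER) or remove misfolded ones from it. They were 39 protein-coding genes taken by symbol from the count table, 22 for translocation and 17 for ER-associated degradation, of 64253 genes listed. All 39 passed the low-count filter, which kept 16366 genes. A second, alternative-sequence entry for DERL3 with 0 reads in all 9 libraries was left out. The libraries came from EPC2, described as a cell line derived from normal squamous epithelium of the esophagus, which all groups share. One group received a FOXF1 plasmid with Lipofectamine 2000, a lipid that carries DNA into cells. The next received an empty vector with the same lipid, and the last was left untreated, so it differs from both in vector and in lipid. Each group had 3 libraries, described by the submitters as biological triplicates. FOXF1 encodes a forkhead transcription factor, and the plasmid and empty vector groups differ in whether the plasmid carried it. No time between transfection and harvest is given in the sources used here.

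Secreted and membrane proteins enter the ER through the Sec61 channel, to which the signal recognition particle (SRP) and its receptor deliver translating ribosomes, and there the signal peptidase removes their signal peptides. Proteins that fail to fold are recognised by lectins and mannosidases in the lumen, passed to the membrane ubiquitin ligase SYVN1 (also called HRD1) with its partner SEL1L, and pulled into the cytosol by the ATPase VCP for destruction by the proteasome. In epithelial cells both routes are tuned by the unfolded protein response, whose sensors ATF6, ERN1 and EIF2AK3 raise transcripts of chaperones and of degradation factors when folding falls behind.

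The promoters of these genes are shown because letters that match elements known from that response lie in some of them. RefSeq windows on GRCh38.p14, from 250 bases before to 50 bases after a transcription start, were found for 36 of the 39 genes (44 windows of 35116), without SPCS1, DERL3 and DERL1. On both strands they were searched for the ER stress response element (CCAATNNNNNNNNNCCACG), element II of that name (ATTGGNCCACG), the core of the unfolded protein response element (TGACGTGG) and an amino acid response element (TGATGCAAT). The first was in no member window and in 0.0769% of all windows, and the last in none against 0.236%. Element II lay in the window of HERPUD1 alone, against 0.0541% of all windows, at 117 to 107 bases before the start. The core element lay in windows of 6 of the 36 members, SEC62, SRP19, SSR3, SSR4, UBE2J1 and VCP, against 0.729% of all windows. Members are counted by gene and the shares of all by window, so these are not in the same unit. These matches are descriptions of letters in a window. The stretches below hold the match in capitals (the core reads CCACGTCA where it lies on the other strand) for HERPUD1 and for the 4 core-bearing genes called below. Those 4 were chosen after the matches were seen. They run 5′ to 3′ on the gene's strand, at chr16:56931892-56932047 (plus), chr3:169966777-169966806 (plus), chr6:89352913-89352972 (minus), chr3:156554133-156554192 (minus) and chrX:153794528-153794557 (plus). The SEC62, SSR3 and SSR4 stretches lie inside the gene as GENCODE 29 draws it, before a later start, and those of SEC62 and SSR4 touch an annotated exon.
HERPUD1: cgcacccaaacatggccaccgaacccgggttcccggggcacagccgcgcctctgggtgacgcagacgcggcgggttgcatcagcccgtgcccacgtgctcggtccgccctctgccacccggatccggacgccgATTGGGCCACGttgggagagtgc
SEC62: ccccctcctcgctCCACGTCAgagggaacc
UBE2J1: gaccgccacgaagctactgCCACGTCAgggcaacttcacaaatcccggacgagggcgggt
SSR3: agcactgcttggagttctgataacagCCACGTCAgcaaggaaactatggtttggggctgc
SSR4: tcagggaggggCCACGTCAgtgctgccaga

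Depth was even, at 34390666 to 39973289 counts a library, so 3 counts, the limit that a count of 0 allows, equal 0.0751 to 0.0872 CPM, the count of a gene scaled to library size. FOXF1 itself had 367, 184 and 141 counts in FOXF1 plasmid cells, 0, 0 and 6 in empty vector cells and 1, 0 and 0 untreated. Mitochondrially encoded genes took 14.1 ± 0.518% of counts in FOXF1 plasmid cells, 11.2 ± 0.759% in empty vector cells and 20.9 ± 2.003% in untreated cells (SD, n = 3 each). Of 7 squamous markers only KRT5 and KRT6A passed the filter, TP63 had 0 counts in all 9 libraries, and the list summed to 1.09 to 1.72 CPM in FOXF1 plasmid cells, 1.16 to 1.64 CPM in empty vector cells and 1.42 to 2.42 CPM untreated. Simple epithelial markers (KRT7, KRT8, KRT18, KRT19, EPCAM and CDH1) summed to 3954 to 4209 CPM in FOXF1 plasmid cells, 3446 to 3868 CPM in empty vector cells and 4057 to 4687 CPM untreated. The squamous list was thus low beside the simple epithelial one, in a line described as squamous, and the identity of the cells was not tested. Mesenchymal markers summed to 3215 to 3579 CPM in FOXF1 plasmid cells, 2948 to 3137 CPM in empty vector cells and 2937 to 3165 CPM untreated. Of these 7, VIM, COL1A1, PDGFRB and THY1 passed the filter. COL1A2 was at 0 counts, and DCN and COL3A1 at no more than 0.165 CPM in any library. Whether counts of 0 reflect expression or counting was not tested. Single markers moved within these sums. In empty vector cells PDGFRB (0.47, adjusted p = 6.67e-05) and COL1A1 (0.30, adjusted p = 0.00431) were higher on the log2 scale than in untreated cells by edgeR's test described below, and THY1 (-0.28, adjusted p = 0.00368), KRT18 (-0.41, adjusted p = 0.000191) and KRT7 (-0.26, adjusted p = 0.0120) were lower. PDGFRB (0.45, adjusted p = 0.000332) and COL1A1 (0.41, adjusted p = 0.000456) were also higher in FOXF1 plasmid cells, where no listed marker passed as lower. Without the composition factor the falls of THY1 and KRT7 did not pass. Leukocyte and endothelial markers stayed at or below 1.07 CPM in sum. The part of these marker levels and of the mitochondrial share in the results below was not tested.

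Per kilobase of exon, with the exons of all annotated transcripts of a gene joined, the channel pore gene SEC61A1 had the highest level. It was at 107 CPM per kb in FOXF1 plasmid cells, 108 in empty vector cells and 98.4 in untreated cells. The extraction ATPase VCP followed at 74.5 CPM per kb in FOXF1 plasmid cells, 73.0 in empty vector cells and 72.5 in untreated cells. SSR2, a subunit of the translocon-associated protein complex (TRAP), had 66.1 CPM per kb in FOXF1 plasmid cells, 62.4 in empty vector cells and 67.4 in untreated cells. Next in untreated cells came SSR4 (56.1 CPM per kb), also of TRAP, and the channel subunit SEC61G (53.9 CPM per kb). This order depends on the length used. Joined exons measured 4697 bases for SEC61A1, 5438 for VCP and 6651 for SSR2. Their transcripts with the longest coding region have 1871, 4370 and 1116 bases, which would place SSR2 above SEC61A1. At the other end stood SRP19, which helps assemble the SRP, with 0.0571 CPM per kb in FOXF1 plasmid cells, 0.0626 in empty vector cells and 0.0517 untreated, from 10 to 38 counts a library. EDEM3, a mannosidase, and SEC62, a channel partner, were also low, at 0.417 and 0.630 CPM per kb in untreated cells. Members of one complex thus differed widely in reads per kilobase, as SRP19 and SRP14 (26.6 CPM per kb untreated) show. Among paralogs, SEC61A2 had 1.15% of the per-length level of SEC61A1 in FOXF1 plasmid cells, 1.14% in empty vector cells and 1.46% untreated. SEC11C had 9.37% of that of SEC11A, the other catalytic subunit of the signal peptidase, in FOXF1 plasmid cells, 10.5% in empty vector cells and 8.07% untreated. DERL3 had 174% of that of DERL1 in FOXF1 plasmid cells, 170% in empty vector cells and 120% untreated, both being Derlins that help move proteins out of the membrane. The DERL3 level is uncertain, since a gene on the opposite strand, SMARCB1, overlaps 77.0% of its exon length. Its joined exons measured 3796 bases, against 1063 in its transcript with the longest coding region.

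**Figure D1:**
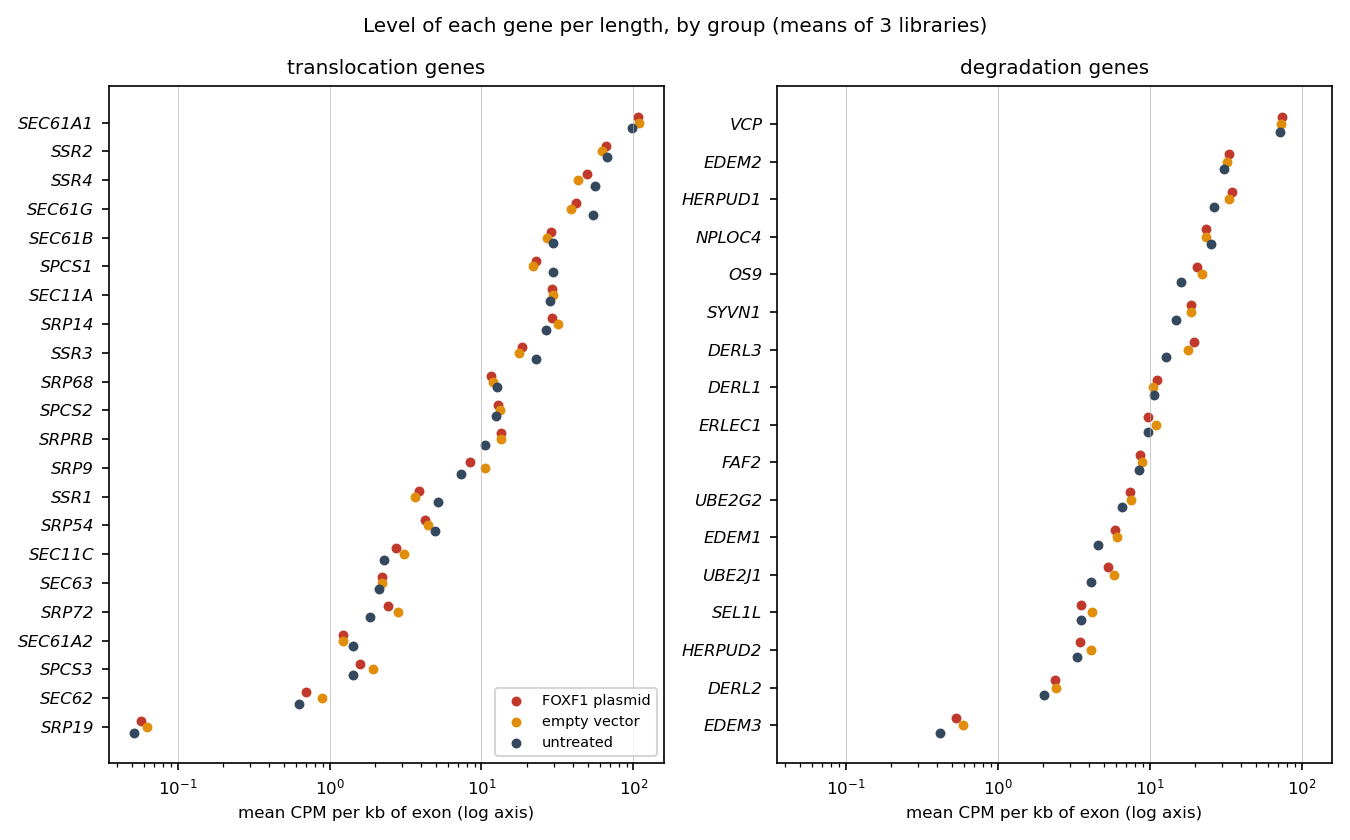
Mean level of each translocation gene (left) and degradation gene (right) in CPM per kb of exon on a log axis, one point per group (FOXF1 plasmid, empty vector, untreated), each the mean of 3 libraries. SEC61A1 and VCP lead their panels at 98.4 and 72.5 CPM per kb in untreated cells, and SRP19 lies lowest at 0.0517.

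Empty vector against untreated cells asks what transfection itself changed. Of the 17 degradation genes, 7 rose and 0 fell at an adjusted p below 0.05 (edgeR's quasi-likelihood test, Benjamini-Hochberg over all 16366 genes), while 19.6% of all genes passed, 10.2% higher and 9.37% lower. Their median log2 fold change was 0.28, against 0.04 over all genes. Of the 22 translocation genes, 7 rose and 5 fell, with a median of 0.07. Levels are CPM on library sizes scaled by TMM (trimmed mean of M values), fold changes carry ± 1 SE, and gene positions are those of GENCODE 29 on GRCh38, with counts summed over exons. In bulk RNA, fewer cells of a type and less RNA per cell cannot be told apart. FOXF1 plasmid against untreated cells shares the untreated libraries with this comparison, and its values are set beside it. There 6 degradation genes rose and 0 fell (median 0.18), and 1 translocation gene rose and 4 fell (median 0.06), against 8.52% of all genes passing, 4.63% higher and 3.89% lower, and a median of 0.02. Scaled by library size alone, without the composition factor, the median of all genes moved to 0.29 in empty vector cells and 0.16 in FOXF1 plasmid cells. There 5721 of all genes were higher and 338 lower in empty vector cells, against 1676 and 1533 with TMM factors, and 2320 and 180 in FOXF1 plasmid cells, against 757 and 637. Relative to the median of all genes the degradation median was then 0.24 higher in empty vector cells and 0.17 higher in FOXF1 plasmid cells, which to 2 decimals is the same as with TMM factors. The translocation median was 0.02 higher in empty vector cells and 0.04 higher in FOXF1 plasmid cells.

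**Figure D2:**
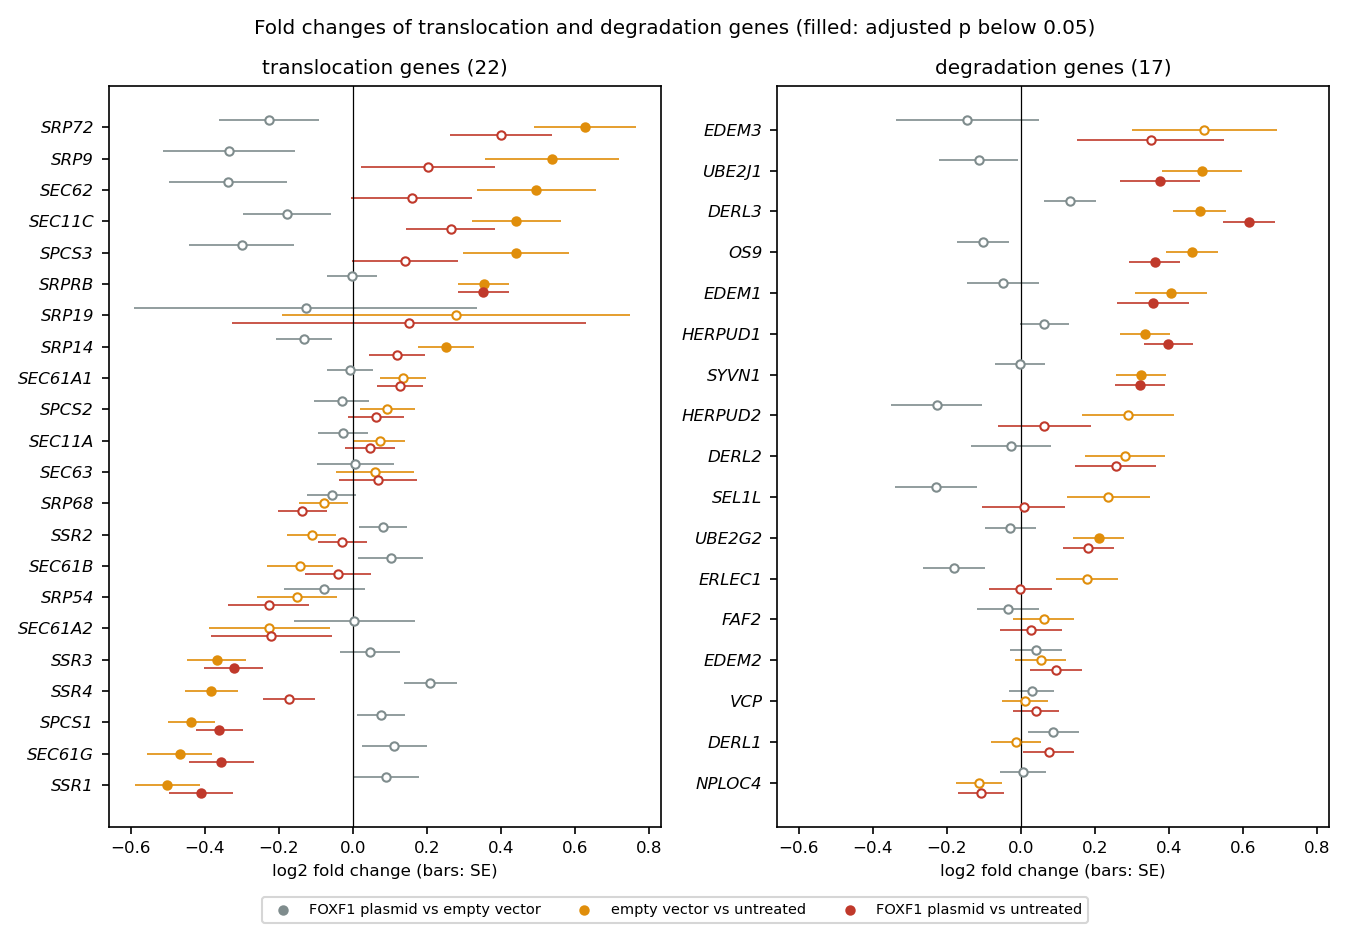
Log2 fold change of each translocation gene (left) and degradation gene (right) for FOXF1 plasmid against empty vector cells, empty vector against untreated cells and FOXF1 plasmid against untreated cells, with bars for 1 SE and filled points where the adjusted p was below 0.05. Against untreated cells 7 degradation genes are filled to the right of 0 in empty vector cells and 0 to the left, translocation genes lie on both sides, and no point of FOXF1 plasmid against empty vector cells is filled.

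The counts of this set and those below stand beside the shares of all genes. These were 10.2% higher and 9.37% lower in empty vector cells, and 4.63% and 3.89% in FOXF1 plasmid cells. The ligase complex had 3 of 7 genes higher and 0 lower in each comparison. SYVN1, the HRD1 ubiquitin ligase (ENSG00000162298, chromosome 11, 65121780 to 65134533, minus strand), measured 101, 109.8 and 96.8 CPM in FOXF1 plasmid cells, 102, 102 and 104 CPM in empty vector cells and 83.0, 75.5 and 87.5 CPM in untreated cells. All 6 transfected libraries lay above the 3 untreated ones. The log2 fold change over untreated cells was 0.32 ± 0.07 (adjusted p = 0.000873) in empty vector cells and 0.32 ± 0.07 (adjusted p = 0.00227) in FOXF1 plasmid cells. HERPUD1 (ENSG00000051108, chromosome 16, 56932048 to 56944863, plus strand) encodes an ER membrane protein with a ubiquitin-like domain that binds this ligase. It is the member whose promoter window holds a match to element II. Its level was 185, 191 and 166 CPM in FOXF1 plasmid cells, 181, 167 and 171 CPM in empty vector cells and 143, 138 and 129 CPM in untreated cells. Again no transfected library reached down to the untreated range, and the log2 fold changes were 0.34 ± 0.07 (adjusted p = 0.000485) in empty vector cells and 0.40 ± 0.07 (adjusted p = 0.000163) in FOXF1 plasmid cells. DERL3 (ENSG00000099958, chromosome 22, 23834503 to 23839128, minus strand), the Derlin best known as a target of the unfolded protein response, stood at 69.3, 72.8 and 79.9 CPM in FOXF1 plasmid cells, 71.4, 67.1 and 63.9 CPM in empty vector cells and 49.4, 47.5 and 47.9 CPM in untreated cells. The 3 untreated libraries were within 47.5 to 49.4 CPM, below every transfected one, which gave 0.48 ± 0.07 (adjusted p = 1.15e-05) in empty vector cells and 0.62 ± 0.07 (adjusted p = 6.39e-07) in FOXF1 plasmid cells. That is 1.40-fold in empty vector cells and 1.53-fold in FOXF1 plasmid cells. DERL3 is uncertain, because 77.0% of its exon length is overlapped by SMARCB1, a chromatin remodeller gene on the opposite strand, and whether counting used strand is not given in the sources used here. SMARCB1 itself was at -0.13 in empty vector cells (adjusted p = 0.146) and -0.06 in FOXF1 plasmid cells (adjusted p = 0.620), and neither passed. The part of this overlap in the DERL3 counts was not tested. The other members of the complex did not pass in either comparison. In empty vector cells HERPUD2, a relative of HERPUD1, was at 0.29, DERL2 at 0.28, the adaptor SEL1L at 0.24 and DERL1 at -0.01. In FOXF1 plasmid cells the same genes were at 0.06, 0.26, 0.01 and 0.07.

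Genes that read the sugars of misfolded glycoproteins were higher in 2 of 5 cases in each comparison, with 0 lower. OS9, a lectin that hands them to the ligase (ENSG00000135506, chromosome 12, 57693955 to 57721557, plus strand), measured 99.5, 111 and 108 CPM in FOXF1 plasmid cells, 116, 119 and 108 CPM in empty vector cells and 78.2, 79.7 and 90.7 CPM in untreated cells. Every transfected library exceeded every untreated one. Its log2 fold changes were 0.46 ± 0.07 (adjusted p = 1.59e-05) in empty vector cells and 0.36 ± 0.07 (adjusted p = 0.000921) in FOXF1 plasmid cells. EDEM1 (ENSG00000134109, chromosome 3, 5187646 to 5219957, plus strand), which trims mannose to mark proteins for removal, measured 47.2, 34.8 and 37.3 CPM in FOXF1 plasmid cells, 38.1, 39.4 and 46.0 CPM in empty vector cells and 27.9, 33.3 and 32.1 CPM in untreated cells. Its groups did not overlap either, but the lowest FOXF1 plasmid library, at 34.8 CPM, was near the highest untreated one, at 33.3 CPM. EDEM1 was at 0.40 ± 0.10 (adjusted p = 0.00316) in empty vector cells and 0.36 ± 0.10 (adjusted p = 0.0187) in FOXF1 plasmid cells. The second call was lost without FOXF1 plasmid replicate 1 (0.21, adjusted p = 0.228) and without untreated replicate 1 (0.27, adjusted p = 0.141). EDEM3 had the largest point estimate of this set, 0.50 ± 0.20 in empty vector cells, and did not pass (adjusted p = 0.0757), at means of only 4.14 CPM in FOXF1 plasmid cells, 4.59 CPM in empty vector cells and 3.25 CPM untreated. EDEM2 was at 0.05 in empty vector cells and 0.09 in FOXF1 plasmid cells, and the lectin ERLEC1 at 0.18 in empty vector cells and within 0.01 of 0 in FOXF1 plasmid cells.

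Of the genes that conjugate ubiquitin and extract the substrate, 2 of 5 rose in empty vector cells, both ubiquitin-conjugating enzymes, and 1 in FOXF1 plasmid cells, with 0 lower. UBE2J1 (ENSG00000198833, chromosome 6, 89326625 to 89352848, minus strand) is the membrane-anchored one and measured 20.7, 21.981 and 26.2 CPM in FOXF1 plasmid cells, 23.3, 25.5 and 25.8 CPM in empty vector cells and 16.2, 21.1 and 15.8 CPM in untreated cells. One untreated library, at 21.1 CPM, lay inside the range of the FOXF1 plasmid but below that of the empty vector. Its log2 fold changes were 0.49 ± 0.11 (adjusted p = 0.00138) in empty vector cells and 0.38 ± 0.11 (adjusted p = 0.0264) in FOXF1 plasmid cells. In FOXF1 plasmid cells the call was lost without FOXF1 plasmid replicate 2 (0.39, adjusted p = 0.0549), FOXF1 plasmid replicate 3 (0.27, 0.218), untreated replicate 1 (0.30, 0.149) or untreated replicate 3 (0.29, 0.133). UBE2G2 (ENSG00000184787, chromosome 21, 44768580 to 44802019, minus strand), the soluble enzyme, stood at 57.1, 51.9 and 55.1 CPM in FOXF1 plasmid cells, 53.7, 57.6 and 56.1 CPM in empty vector cells and 48.3, 48.3 and 48.1 CPM in untreated cells. Its untreated libraries were almost identical and lay below all others. The change was small, 0.21 ± 0.07 (adjusted p = 0.0293) in empty vector cells and 0.18 ± 0.07 (adjusted p = 0.103) in FOXF1 plasmid cells, and only the first passed. That call held in 7 of 14 alternatives. It was lost without empty vector replicate 2 (0.19, adjusted p = 0.132), empty vector replicate 3 (0.21, 0.0689) or any 1 untreated library (0.20 each, 0.0850 to 0.0952), with RLE factors (0.18, 0.0754) and without the low-count filter (0.21, 0.0531). VCP measured 394, 413 and 409 CPM in FOXF1 plasmid cells, 411, 385 and 395 CPM in empty vector cells and 398, 383 and 401 CPM in untreated cells, and those ranges overlapped. Its log2 fold change was 0.01 in empty vector cells and 0.04 in FOXF1 plasmid cells. Its cofactor NPLOC4 was at -0.11 in both, and FAF2, which recruits VCP to the membrane, at 0.06 in empty vector cells and 0.03 in FOXF1 plasmid cells. None of these 3 genes passed, against 10.2% of all genes higher in empty vector cells, and whether this step differs from the others was not tested. With library size alone VCP (0.26, adjusted p = 0.000908) and FAF2 (0.31, adjusted p = 0.0149) passed in empty vector cells, and VCP (0.19, adjusted p = 0.0201) in FOXF1 plasmid cells.

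**Figure D3:**
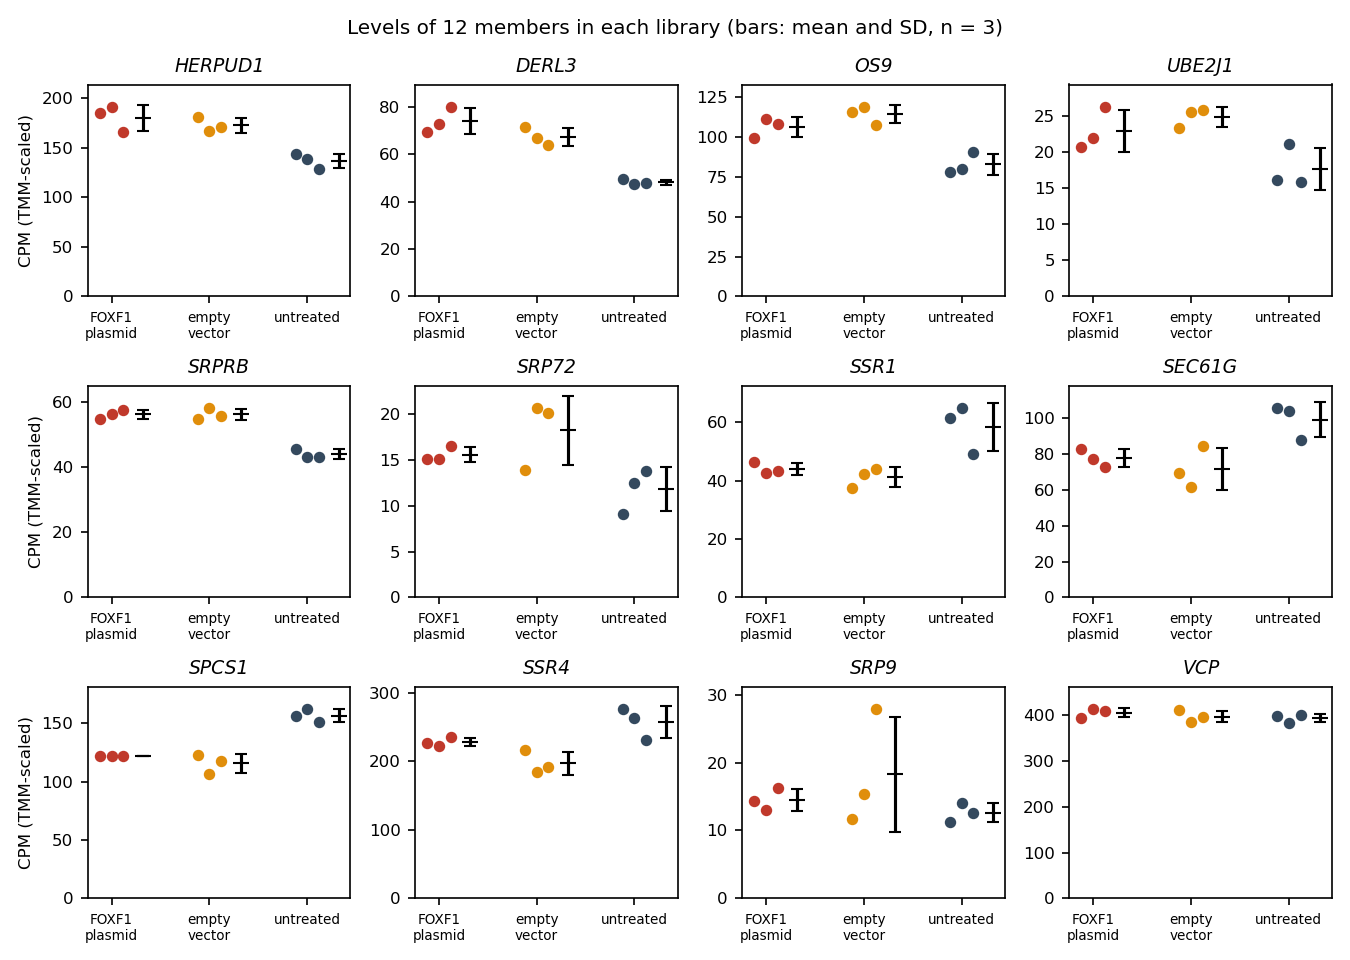
CPM on TMM-scaled library sizes of 12 members in each of the 3 FOXF1 plasmid, 3 empty vector and 3 untreated libraries (points), with mean and SD (bars). HERPUD1, DERL3, OS9 and SRPRB lie higher in all 6 transfected libraries than in untreated ones, SSR1, SEC61G and SPCS1 lie lower, SRP9 has 1 empty vector library at 27.9 CPM, and VCP is nearly level.

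On the translocation side the TRAP complex, which sits beside the channel and helps some signal sequences open it, had 3 of 4 genes lower in empty vector cells and 2 lower in FOXF1 plasmid cells. SSR1 (ENSG00000124783, chromosome 6, 7268306 to 7347446, minus strand), the alpha subunit, measured 46.4, 42.5 and 43.2 CPM in FOXF1 plasmid cells, 37.5, 42.5 and 44.1 CPM in empty vector cells and 61.5, 64.9 and 49.1 CPM in untreated cells. All 3 untreated libraries were above all 6 transfected ones. The log2 fold change was -0.50 ± 0.09 (adjusted p = 9.6e-05) in empty vector cells, which is 0.707-fold, and -0.41 ± 0.09 (adjusted p = 0.00228) in FOXF1 plasmid cells. SSR3 (ENSG00000114850, chromosome 3, 156540140 to 156555184, minus strand), the gamma subunit, measured 84.3, 83.0 and 87.4 CPM in FOXF1 plasmid cells, 79.0, 77.7 and 90.0 CPM in empty vector cells and 108, 120.3 and 89.7 CPM in untreated cells. Replicate 3 of the empty vector reached the lowest untreated library, so those groups touched, while the FOXF1 plasmid libraries stayed below. SSR3 was at -0.37 ± 0.08 (adjusted p = 0.00132) in empty vector cells and -0.32 ± 0.08 (adjusted p = 0.00988) in FOXF1 plasmid cells, the second call being lost without untreated replicate 2 (-0.23, adjusted p = 0.112). SSR4 (ENSG00000180879, chromosome X, 153793516 to 153798505, plus strand), the delta subunit, measured 227, 223 and 235 CPM in FOXF1 plasmid cells, 217, 184 and 192 CPM in empty vector cells and 276, 264 and 232 CPM in untreated cells. Its empty vector libraries were the lowest 3 of the 9. The change was -0.38 ± 0.07 (adjusted p = 0.000222) in empty vector cells and -0.17 ± 0.07 (adjusted p = 0.138) in FOXF1 plasmid cells, which did not pass except without untreated replicate 3 (-0.25, adjusted p = 0.0271). Pseudogenes named after 9 of the members are listed in the count table, and SSR4P1 had the most reads relative to its parent gene over the 9 libraries, 2.86% of those of SSR4, followed by SPCS2P4 at 1.5% of SPCS2 and SRP9P1 at 0.565% of SRP9. How reads were split between such copies is uncertain. SSR2, the beta subunit, did not pass, at -0.11 in empty vector cells and -0.03 in FOXF1 plasmid cells, and with library size alone its sign turned (0.14 in empty vector cells, adjusted p = 0.0522). The TRAP genes were far apart in level, from SSR1 at 5.15 to SSR2 at 67.4 CPM per kb in untreated cells.

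Of 6 genes of the Sec61 channel and its partners, 1 rose and 1 fell in empty vector cells, and 0 rose and 1 fell in FOXF1 plasmid cells. SEC61G (ENSG00000132432, chromosome 7, 54752250 to 54759974, minus strand), which anchors the channel in the membrane, measured 82.7, 77.4 and 72.9 CPM in FOXF1 plasmid cells, 69.6, 61.5 and 84.4 CPM in empty vector cells and 106, 104 and 88.0 CPM in untreated cells. Untreated libraries were the highest 3. Its log2 fold change was -0.47 ± 0.09 (adjusted p = 0.000237) in empty vector cells and -0.35 ± 0.09 (adjusted p = 0.00844) in FOXF1 plasmid cells, and the second call was lost without FOXF1 plasmid replicate 3 (-0.31, adjusted p = 0.0674). SEC62 (ENSG00000008952, chromosome 3, 169966635 to 169998373, plus strand), which opens the channel for proteins delivered after synthesis, measured 6.26, 4.74 and 5.71 CPM in FOXF1 plasmid cells, 5.85, 7.17 and 8.09 CPM in empty vector cells and 4.83, 4.93 and 5.22 CPM in untreated cells. The empty vector libraries were above the untreated ones, and the FOXF1 plasmid libraries spanned both. SEC62 was at 0.50 ± 0.16 (adjusted p = 0.0279) in empty vector cells and 0.16 ± 0.16 (adjusted p = 0.625) in FOXF1 plasmid cells. Its call was lost without empty vector replicate 2 (0.48, adjusted p = 0.0893), empty vector replicate 3 (0.38, 0.160), untreated replicate 1 (0.46, 0.0932) or untreated replicate 2 (0.48, 0.0800). SEC61A1 was at 0.14, SEC61A2 at -0.22, SEC61B at -0.14 and SEC63, a J-domain partner of SEC62, at 0.06 in empty vector cells, and at 0.13, -0.22, -0.04 and 0.07 in FOXF1 plasmid cells, and none passed.

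The signal peptidase had 2 of 5 genes higher and 1 lower in empty vector cells, and 0 higher and 1 lower in FOXF1 plasmid cells. SPCS1 (ENSG00000114902, chromosome 3, 52704955 to 52711146, plus strand), an accessory subunit, measured 122, 122 and 122 CPM in FOXF1 plasmid cells, 123, 107 and 118 CPM in empty vector cells and 157, 162 and 151 CPM in untreated cells. All 6 transfected libraries were at or below 123 CPM and all untreated ones at or above 151 CPM. Its log2 fold change was -0.44 ± 0.06 (adjusted p = 1.23e-05) in empty vector cells and -0.36 ± 0.06 (adjusted p = 0.000375) in FOXF1 plasmid cells, and it passed in all 14 alternatives of both comparisons. SPCS1 is uncertain, since 50.7% of its exon length is overlapped by NEK4 on the opposite strand, which was at 0.13 (adjusted p = 0.461) in empty vector cells and -0.05 (adjusted p = 0.859) in FOXF1 plasmid cells. SEC11C (ENSG00000166562, chromosome 18, 59139477 to 59158836, plus strand), the less abundant catalytic subunit, measured 10.9, 12.2 and 13.9 CPM in FOXF1 plasmid cells, 12.6, 14.1 and 15.2 CPM in empty vector cells and 9.58, 10.4 and 10.8 CPM in untreated cells. Here the empty vector libraries lay above untreated ones, at 0.44 ± 0.12 (adjusted p = 0.00871), whereas the FOXF1 plasmid gave 0.26 ± 0.12 (adjusted p = 0.193). Without empty vector replicate 3 (0.38, adjusted p = 0.0518) or untreated replicate 1 (0.38, 0.0548) the call was lost. SPCS3 (ENSG00000129128, chromosome 4, 176319964 to 176332245, plus strand), needed for cleavage, measured 11.7, 10.9 and 9.81 CPM in FOXF1 plasmid cells, 10.1, 12.8 and 16.9 CPM in empty vector cells and 9.64, 9.15 and 10.6 CPM in untreated cells. Its rise of 0.44 ± 0.14 (adjusted p = 0.0269) in empty vector cells was largely that of replicate 3 at 16.9 CPM, without which it was 0.23 (adjusted p = 0.318), and the groups overlapped. It was lost, too, without empty vector replicate 2 (0.47, adjusted p = 0.0550), untreated replicate 1 (0.42, 0.0754) or untreated replicate 2 (0.38, 0.107). In FOXF1 plasmid cells SPCS3 was at 0.14 ± 0.14 (adjusted p = 0.623). SEC11A and SPCS2 did not pass, at 0.07 and 0.09 in empty vector cells and 0.05 and 0.06 in FOXF1 plasmid cells.

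Of the 7 member genes of the SRP and its receptor, 4 rose in empty vector cells and 1 in FOXF1 plasmid cells, and 0 fell. SRPR, the other receptor subunit, is not among the 39 and was looked at after its values were seen. It was lower in empty vector cells (-0.24 ± 0.06, adjusted p = 0.00603) and in FOXF1 plasmid cells (-0.22 ± 0.06, adjusted p = 0.0179), but with library size alone it did not pass, at 0.01 in empty vector cells and -0.08 in FOXF1 plasmid cells. SRPRB (ENSG00000144867, chromosome 3, 133784033 to 133825772, plus strand), the membrane-anchored receptor subunit, measured 54.9, 56.5 and 57.5 CPM in FOXF1 plasmid cells, 55.0, 58.2 and 55.9 CPM in empty vector cells and 45.8, 43.3 and 43.1 CPM in untreated cells. The lowest transfected library, at 54.9 CPM, stood well above the highest untreated one, at 45.8 CPM. Both changes were alike in size, 0.35 ± 0.07 (adjusted p = 0.000366) in empty vector cells and 0.35 ± 0.07 (adjusted p = 0.000996) in FOXF1 plasmid cells. SRP72 (ENSG00000174780, chromosome 4, 56467336 to 56503681, plus strand), which with SRP68 holds the particle's core, measured 15.1, 15.2 and 16.5 CPM in FOXF1 plasmid cells, 13.9, 20.7 and 20.1 CPM in empty vector cells and 9.10, 12.5 and 13.8 CPM in untreated cells. It was the largest rise of any member in empty vector cells, 1.54-fold, although replicate 1 of the empty vector was only just above the highest untreated library. The log2 fold change was 0.63 ± 0.14 (adjusted p = 0.00132) in empty vector cells and 0.40 ± 0.14 (adjusted p = 0.0693) in FOXF1 plasmid cells. The FOXF1 plasmid value passed in 5 of 14 alternatives, among them without untreated replicate 3 (0.52, adjusted p = 0.0258). SRP9 (ENSG00000143742, chromosome 1, 225777813 to 225790466, plus strand), which with SRP14 slows the ribosome during targeting, measured 14.3, 13.1 and 16.2 CPM in FOXF1 plasmid cells, 11.7, 15.3 and 27.9 CPM in empty vector cells and 11.2, 14.002 and 12.6 CPM in untreated cells. One empty vector library at 27.9 CPM stood apart from the other 8, which ran from 11.2 to 16.2 CPM. SRP9 was at 0.54 ± 0.18 (adjusted p = 0.0329) in empty vector cells, but at 0.10 (adjusted p = 0.706) without that library. Its call was also lost without untreated replicate 1 (0.45, adjusted p = 0.117) or untreated replicate 3 (0.53, 0.0628), with DESeq2 (0.51, 0.265) and in a fit of the 2 groups alone (0.54, 0.0544). In FOXF1 plasmid cells it was at 0.20 ± 0.18 (adjusted p = 0.567).

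SRP14 (ENSG00000140319, chromosome 15, 40035739 to 40039188, minus strand), the partner of SRP9, measured 51.6, 58.4 and 64.0 CPM in FOXF1 plasmid cells, 68.1, 60.7 and 61.8 CPM in empty vector cells and 52.9, 53.5 and 53.6 CPM in untreated cells. Its empty vector libraries exceeded the untreated ones, while 1 FOXF1 plasmid library lay below them. SRP14 was at 0.25 ± 0.08 (adjusted p = 0.0176) in empty vector cells and 0.12 ± 0.08 (adjusted p = 0.382) in FOXF1 plasmid cells. That call was lost without empty vector replicate 1 (0.20, adjusted p = 0.0733), untreated replicate 1 (0.24, 0.0660) or untreated replicate 2 (0.24, 0.0581). SRP54, which binds the signal sequence, SRP68 and SRP19 did not pass, at -0.15, -0.08 and 0.28 in empty vector cells and -0.23, -0.14 and 0.15 in FOXF1 plasmid cells, the SE of SRP19 being 0.47 in empty vector cells and 0.48 in FOXF1 plasmid cells. With library size alone the falls of SSR3, SSR4 and SEC61G in empty vector cells were -0.12, -0.14 and -0.22 and did not pass (adjusted p = 0.256, 0.0796 and 0.0539), while SSR1 and SPCS1 passed. In FOXF1 plasmid cells the falls of SSR1, SSR3 and SEC61G were then -0.26, -0.17 and -0.20 and did not pass (adjusted p = 0.0629, 0.162 and 0.124). Of the 19 members called in empty vector cells, SSR3, SRP9 and SPCS3 had groups that overlapped. Non-overlapping groups were seen in 15 members with higher and 5 with lower values, against 17.4% and 15.3% of all genes, and in FOXF1 plasmid cells in 12 and 6 members, against 14.1% and 12.6%.

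Set against each other library by library on TMM-scaled sizes, the means over genes of log2(CPM + 1) separated the degradation genes and not the translocation genes. Degradation genes averaged 5.74, 5.71 and 5.71 in FOXF1 plasmid cells, 5.72, 5.76 and 5.80 in empty vector cells and 5.49, 5.55 and 5.55 in untreated cells. The 6 transfected libraries were all higher. Translocation genes averaged 5.29, 5.24 and 5.35 in FOXF1 plasmid cells, 5.25, 5.28 and 5.45 in empty vector cells and 5.30, 5.36 and 5.26 in untreated cells, and these ranges overlapped. The difference, translocation minus degradation, was -0.43 ± 0.06 in FOXF1 plasmid cells, -0.43 ± 0.07 in empty vector cells and -0.22 ± 0.05 in untreated cells (SD, n = 3 each). Relative to untreated cells it was -0.21 in both transfected groups, with no overlap between libraries, and the FOXF1 plasmid and the empty vector were 0.01 apart. Only this difference, and not the mean of each set, was checked under other scalings. With library size alone the translocation median log2 fold change was 0.31 in empty vector cells and 0.20 in FOXF1 plasmid cells. All genes were then at 0.29 and 0.16. Whether the translocation ranges overlap under that scaling is not shown. Since the genes were chosen with earlier results known, the difference carries no test.

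**Figure D4:**
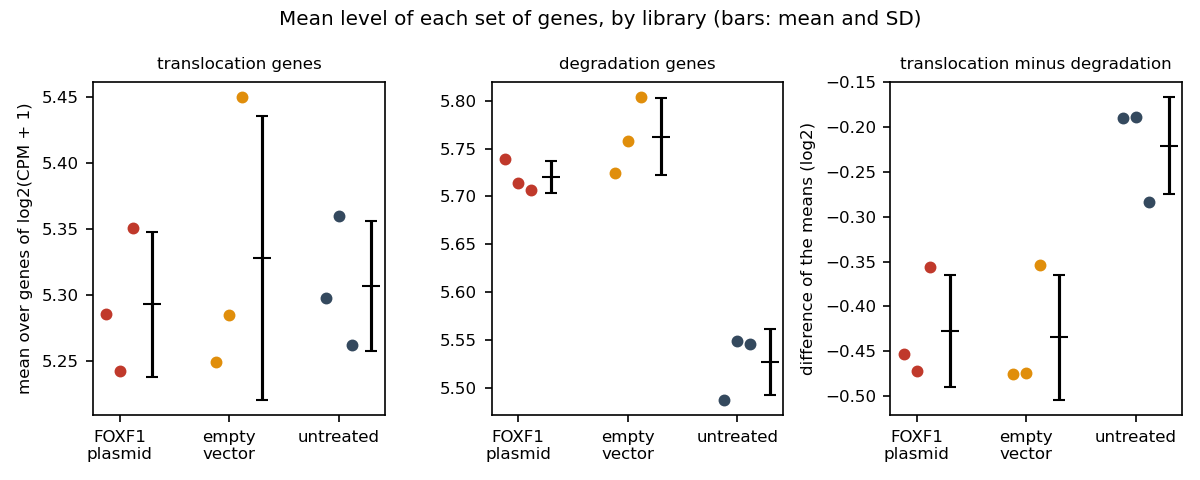
Mean over 22 translocation genes (left) and 17 degradation genes (middle) of log2(CPM + 1), and their difference (right), for each FOXF1 plasmid, empty vector and untreated library, with mean and SD of 3 libraries; the vertical axes do not start at 0. On TMM-scaled library sizes, degradation means run from 5.71 to 5.80 in transfected libraries and from 5.49 to 5.55 in untreated ones, while translocation means overlap.

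Setting FOXF1 plasmid cells against empty vector cells asks what FOXF1 added to transfection. No member passed by edgeR's quasi-likelihood test, by which 0.055% of all genes passed (9, all higher), nor by DESeq2, which called 104 genes. At an unadjusted p below 0.05 there were 1 higher and 4 lower members (SEC62, SPCS3, SEL1L and ERLEC1), against 5.09% higher and 4.34% lower of all genes. The median log2 fold change was -0.02 over translocation and -0.03 over degradation genes, against -0.01 over all genes, and SEs ran from 0.06 to 0.46. SSR4 had the smallest p, with 227, 223 and 235 CPM in FOXF1 plasmid cells and 217, 184 and 192 CPM in empty vector cells. Groups did not overlap in 1 member with higher (SSR4) and 2 with lower values (ERLEC1 and HERPUD2), against 7.33% and 5.68% of all genes. For SSR4 the log2 fold change was 0.21 ± 0.07 (adjusted p = 0.365). The furthest below 0 was SEC62 at -0.34 ± 0.16 (adjusted p = 0.521), followed by SRP9 at -0.33 ± 0.18 and SPCS3 at -0.30 ± 0.14. All 7 SRP and receptor members had values below 0 and all 4 TRAP genes values above 0 (0.05 to 0.21). Of all 16366 genes, 7630 lay above 0. SRPRB was below 0 by less than 0.01 and turned with DESeq2 and with RLE factors (0.01 each), among others. Without empty vector replicate 3, SRP9 (0.10), SRP19 (0.14) and SRP54 (0.0018) turned, and SRP19 also without FOXF1 plasmid replicate 2 (0.19). With library size alone 3 of the TRAP genes lost their sign. Without empty vector replicate 1, SSR4 (0.28, adjusted p = 0.0355), SRP9 (-0.57, 0.0375) and SEL1L (-0.40, 0.0180) passed.

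In sequence, the 5 members called lower in empty vector cells, all translocation genes, had coding regions of 204 to 894 bases (median 519). The 14 called higher had 258 to 2013 bases (median 883.5) and the 20 others 288 to 2796 bases (median 1437). The median over 13244 protein-coding genes tested was 1431. Among translocation genes alone the medians were 519 bases for the 5 lower, 576 for the 7 higher and 1099.5 for the 10 others. Spearman's rho of the log2 fold change with coding length in this comparison was 0.172 over the members and 0.03 over all protein-coding genes. With transcript length it was 0.335 over the members and 0.15 over all protein-coding genes. For FOXF1 plasmid against empty vector cells, rho with transcript length was -0.387 over the members and -0.284 over all. Across the 39 genes, Spearman's rho of the log2 fold change with transcript GC content was 0.595 for FOXF1 plasmid against empty vector cells (0.476 over all protein-coding genes) and -0.342 for empty vector against untreated cells (-0.313 over all). The genes share libraries and are not independent, so these are descriptions. For GC content, members and all genes had the same sign in each comparison. The part of GC content, coding length or transcript length in the members' changes was not tested. Of the 6 genes with the core element, SEC62 and UBE2J1 rose in empty vector cells, SSR3 and SSR4 fell, and VCP and SRP19 did not pass.

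Around the members, other genes of the same routes were counted from fixed lists. Of all genes, 10.2% were higher and 9.37% lower in empty vector cells, and 4.63% and 3.89% in FOXF1 plasmid cells. Of 18 other targeting and translocon genes tested, 5 rose and 2 fell in empty vector cells, 3 rose and 1 fell in FOXF1 plasmid cells. HSPA13, a chaperone of the ER lumen, had the largest change (1.38 in empty vector cells), followed by TMCO1 (0.99), which works beside the channel, DNAJC1 (0.80), an ER co-chaperone, and TRAM1 (0.52), a channel neighbour. TRAM1 libraries overlapped, at 44.0 to 86.6 CPM in empty vector cells and 41.1 to 47.0 CPM untreated. HSPA13 averaged only 2.86 CPM untreated. In FOXF1 plasmid cells HSPA13 (0.65, adjusted p = 0.0595) and TRAM1 (0.14, 0.573) did not pass by edgeR's test, while TMCO1 and DNAJC1 did. The oligosaccharyltransferase, which glycosylates entering proteins, had 6 of 12 genes higher and 3 lower in empty vector cells and 4 higher and 3 lower in FOXF1 plasmid cells. Its largest changes in empty vector cells were MAGT1 (0.92), RPN1 (0.58), STT3B (0.54) and OST4 (-0.53), so it too moved in both directions. The ER membrane complex, an insertase for membrane proteins, had 1 of 10 genes higher in each comparison and none lower. That gene was EMC10 (0.42 in empty vector cells and 0.31 in FOXF1 plasmid cells), and in empty vector cells the count is close to the share of all genes.

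The list of other degradation genes also holds ER folding factors, among them SDF2L1, CRELD2 and DNAJB11. It gave 8 higher and 1 lower of 29 in empty vector cells, and 4 higher and 0 lower in FOXF1 plasmid cells. Those 4 were SDF2L1, CRELD2, DNAJB11 and VIMP. The list held 30 genes, of which DNAJB9 had 0 counts in all 9 libraries and was left out. Whether that reflects expression or counting was not tested. The one that fell was SVIP (-0.86), known as an inhibitor of the route through VCP, at 0.772 to 1.21 CPM in empty vector cells and 1.42 to 2.15 CPM untreated. RNF139 (0.62), an ER ubiquitin ligase, VIMP (0.44), which ties VCP to Derlins, and SDF2L1 (0.42), a chaperone partner, were the largest rises. Of 9 sensors and factors of the unfolded protein response, 8 rose in empty vector cells and 6 in FOXF1 plasmid cells, with 0 lower. Their median log2 fold change was 0.54 in empty vector cells and 0.45 in FOXF1 plasmid cells. HSPA5, the main ER chaperone, averaged 951 ± 41.8 CPM in FOXF1 plasmid cells, 1032 ± 64.6 CPM in empty vector cells and 541 ± 30.6 CPM in untreated cells. HSP90B1, its partner chaperone, averaged 418 ± 18.7 CPM in FOXF1 plasmid cells, 446 ± 31.4 CPM in empty vector cells and 248 ± 1.92 CPM in untreated cells (SD, n = 3 each). DDIT3, a stress transcription factor, was at 0.86 and the sensor ATF6 at 0.56 in empty vector cells, and ATF6B, its relative, did not pass (-0.09). The members' rises, 1.16-fold to 1.54-fold in empty vector cells, were smaller in point estimate than that of HSPA5, a difference that was not tested. Of these 5 lists no gene passed for FOXF1 plasmid against empty vector cells by edgeR's test. Over all genes, 5.09% were higher and 4.34% lower there at an unadjusted p below 0.05. At an unadjusted p below 0.05 there were 0 higher and 5 lower among the 29 other degradation genes, 0 higher and 2 lower among the 9 genes of the unfolded protein response, 0 higher and 2 lower among the 12 of the oligosaccharyltransferase, 1 higher and 2 lower among the 18 other targeting and translocon genes and 1 of each among the 10 of the ER membrane complex.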

How the data were processed

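Poly(A)-selected RNA of 9 EPC2 libraries was sequenced from stranded libraries, per the labels' protocols. Per the submitters' processing notes, bcl2fastq, STAR 2.5.2b, HTSeq and GRCh38 were used. The annotation release is not given in the sources used here, nor is the strand setting of the counting. The deposited values are raw gene counts of the authors, with 34390666 to 39973289 per library.

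From these, edgeR 4.0.16 (R 4.3.3) gave TMM factors, kept 16366 genes (filterByExpr, minimum count 10) and fitted a quasi-likelihood model with 1 mean per group to all 9 libraries. P-values were adjusted by Benjamini-Hochberg over all genes and called below 0.05. Coding lengths, transcript lengths and GC content came from the transcript with the longest coding region in GENCODE 29, and promoters from RefSeq (GRCh38.p14). No 2 libraries of a group were duplicates (chi-square per degree of freedom 8.878 to 24.14). The test was checked on simulated data, with the outcome not reported here. The members and gene lists were chosen with earlier results of these data known. By rule, values in every library are given for up to 6 largest rises and falls per set among members called in empty vector cells. They are also given for the member with the smallest p for FOXF1 plasmid against empty vector cells. UBE2G2 and SRP14, the smallest called rises of their sets, go beyond that rule, and VCP was added after values were seen. In each other list up to 4 called genes with the largest change in empty vector cells are named, and HERPUD1, the only called gene with either stress element, was printed by rule. The limit of 3 counts covers counting error only. Alternatives were DESeq2 1.42.0, RLE factors, library size alone, no filter, 1 CPM in 3 libraries, mitochondrial genes left out, a fit of the 2 groups alone, a replicate block and leaving out each library.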

Additional observations from a re-analysis of the deposited data

How the results depend on the processing

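Under all alternatives the members had 545 fold changes in each comparison. Of those of empty vector against untreated cells, 28 lost a call and 16 gained one in the same direction. For FOXF1 plasmid against untreated cells 11 lost and 14 gained a call, and for FOXF1 plasmid against empty vector cells 0 lost and 3 gained one. The sign turned in 18 values (11 members) of empty vector against untreated cells, 23 (10 members) of FOXF1 plasmid against untreated cells and 53 (23 members) of FOXF1 plasmid against empty vector cells. None of these was a member called in that comparison, and with the turn DERL1 alone gained a call, at 0.23 (adjusted p = 0.0138) in empty vector cells with library size alone, against -0.01. Scaling by library size alone, which moved all genes, called 29 members in empty vector cells (11 translocation genes higher and 2 lower, 16 degradation genes higher) and 17 in FOXF1 plasmid cells (5 translocation genes higher and 1 lower, 11 degradation genes higher). Translocation genes called higher in empty vector cells numbered 2 to 6 on leaving out 1 library (2 without untreated replicate 1, 4 without untreated replicate 2, 3 without empty vector replicate 3), against 7. In FOXF1 plasmid cells they were 2 in place of 1, SRP72 being added, with no low-count filter, with the 2 groups alone, with the replicate block and, on leaving out 1 library, 1 to 2 (without untreated replicate 3). For FOXF1 plasmid against empty vector cells, members called ranged from 0 to 3 on leaving out 1 library, with 3 (1 translocation gene higher and 1 lower, 1 degradation gene lower) without empty vector replicate 1.

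The replicate numbers did not pair the libraries (9 correlations of deviations, -0.0904 to 0.0837). With the replicate block, members called were 19 in empty vector cells and 12 with FOXF1 plasmid against untreated cells, and 0 between the transfected groups. Over all genes, calls for empty vector against untreated cells were 6059 with library size alone and 2092 without empty vector replicate 2, against 3209. For FOXF1 plasmid against untreated cells they were 2500 with library size alone and 817 to 927 without untreated replicates 1 or 2 or FOXF1 plasmid replicates 2 or 3, against 1394. Between the transfected groups, 9 became 104 with DESeq2, 16 with RLE factors or the replicate block, 4 without mitochondrial genes, 96 with no filter, and 1 to 326 on leaving out 1 library. The difference between the translocation and degradation means kept within 1 SD of its value in every alternative tried. Low counts limit SRP19, SEC62 and EDEM3.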
